A study of Mus musculus with 13 samples.

Results

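The respiratory chain genes described here are the rows of a mouse RNA-seq count table whose symbols name subunits of complexes I to V, from both genomes of the cell. A symbol pattern chose them: Nduf, Sdh, Uqcr, Cyc1, Cox4 to Cox8 and Atp5 genes of the nucleus, and the 13 protein genes of mitochondrial DNA. Of 35976 rows, 98 matched and 92 of these had at least 1 count, 83 nuclear and 9 mitochondrially encoded. Of the 92, 89 passed the expression filter and were tested, 81 nuclear and 8 mitochondrially encoded. The pattern used names only and no measured value. It leaves out Cox4i1 and Ndufab1, which are subunits, and takes in Atp5s and Atp5sl, which are not structural subunits, and the pseudogenes Uqcrh-ps1 and Atp5c1-ps. Ndufa4 was counted with complex I by its symbol, although its protein is now placed in complex IV.

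The cells were primordial germ cells, which later give rise to sperm, from male mouse embryos at E14.5, and were sorted by an Oct4-GFP reporter, which is active in germ cells. RNA came from 5000 cells per library. The 4 genotypes concern Tet1, whose protein oxidises 5-methylcytosine in DNA: WT is wild type, KO a knockout, HxD is known as a catalytically dead form and V as a form that stops after the initial oxidation step. Each had 3 libraries (n = 3 throughout), and the labels give neither strain nor the number of animals pooled, so the p-values rest on the spread among these libraries, some of which may be technical. The same 3 WT libraries serve all 3 mutants, and the comparisons with WT are therefore not independent of one another.

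The respiratory chain passes electrons from NADH (complex I) and succinate (complex II) through complexes III and IV to oxygen, and pumps protons that drive the ATP synthase (complex V). Complex II is made from nuclear genes alone, while the other complexes join nuclear subunits, imported from the cytosol, to subunits made inside the mitochondrion. Mitochondrial genes are copied as long transcripts that are cut into separate mRNAs, whereas each nuclear subunit gene has its own promoter. The number of mitochondria is known to increase as germ cells develop.

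Library totals ran from 13584484 to 29641963 counts, and 11529 (WT 3) to 15715 (V 2) genes had a count. Levels are given as CPM, counts scaled to a common library size with TMM factors. Tet1 itself had 596, 589 and 639 CPM in WT and 213, 201 and 225 in KO, with 536 to 735 in HxD and 364 to 625 in V, so the KO libraries lay below all others. The 11 germ cell markers summed to 3160 to 4830 CPM, with every WT library (4590 to 4830) above every mutant library. By gene the list went both ways, with 5 values higher and 6 lower than WT in each mutant. The medians were -0.12 in KO, -0.05 in HxD and -0.1 in V. EdgeR called 2 of these markers lower in KO, 2 in HxD and 0 in V. It called 22, 3 and 0 of all 14702 tested genes lower there. Markers of Leydig, interstitial, macrophage and erythroid cells reached at most 28.6 CPM in sum. Those of endothelial cells summed to 121 to 280 CPM and those of Sertoli cells to 4.03 to 384 CPM, the highest in a V library. Fewer cells of a type and less RNA per cell cannot be told apart in such data. Spearman correlations of the libraries' counts overlapped within (0.884 to 0.917) and between (0.878 to 0.918) genotypes.

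The mitochondrially encoded genes differed widely in counts. COX1, the catalytic core of complex IV, had 1397821 counts over the 12 libraries, CYTB of complex III 731632, ND5 571921, ND1 542227, ND2 275700, ND4 223941 and ND6 203256. ND3, a small complex I subunit, had 1139 counts. COX3 had 1 count, and COX2, ATP6, ATP8 and ND4L had 0 of 261585297, which allows at most 0.0115 CPM (3 counts over all libraries, counting error only). COX2 and COX3 are core complex IV subunits, ATP6 and ATP8 belong to the ATP synthase, and ND4L is a complex I subunit.

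The genes near 0, apart from ATP8, have a near-identical copy in the nuclear genome. GENCODE annotates 7 unprocessed pseudogenes, on the minus strand of chromosome 1 at chr1:24611535-24616197 (GRCm38, 4663 bases), that repeat in order the stretch of mitochondrial DNA from the end of COX1 to the middle of ND4. None of the 7 pseudogene symbols is a row of the count table. The mitochondrial stretches below are shown beside their chromosome 1 copies because they carry that contrast. Each is 60 bases, 5′ to 3′ in the sense of the mitochondrial gene, and capitals mark bases that differ. Positions count from 1 at the 5′ end of the mitochondrial transcript.
COX2, positions 1 to 60 (chrM:7013-7072, plus strand): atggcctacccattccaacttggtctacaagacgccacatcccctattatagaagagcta
Its copy Gm28661 (chr1:24615506-24615565, minus strand): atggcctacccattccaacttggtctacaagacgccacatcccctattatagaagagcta
ATP6, positions 1 to 60 (chrM:7927-7986, plus strand): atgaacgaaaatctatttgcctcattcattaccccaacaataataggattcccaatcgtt
Its copy Gm10925 (chr1:24614592-24614651, minus strand): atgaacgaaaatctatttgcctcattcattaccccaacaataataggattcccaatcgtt
ND3, positions 1 to 60 (chrM:9459-9518, plus strand): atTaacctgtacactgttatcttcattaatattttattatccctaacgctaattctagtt
Its copy Gm28438 (chr1:24613060-24613119, minus strand): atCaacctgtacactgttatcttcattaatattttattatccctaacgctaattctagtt
COX1, positions 1054 to 1113 (chrM:6381-6440, plus strand): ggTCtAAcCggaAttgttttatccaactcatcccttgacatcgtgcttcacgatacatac
Its copy Gm29216 (chr1:24616138-24616197, minus strand): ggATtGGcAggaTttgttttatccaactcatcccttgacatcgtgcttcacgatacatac

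COX2 and its copy were equal at all 681 bases aligned, ATP6 at all 678, COX3 at all 783 and ND4L at all 294. ND3 differed from its copy at 1 base of 345, T3C. The copy of COX1 covers 492 of its 1545 bases and differs at 6 of them (T1056A, C1057T, A1059G, A1060G, C1062A and A1066T), all at its start, as the last pair of sequences shows. The copy of ND4 covers 876 of 1378 bases with 0 differences.

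To put every member on a like scale, each transcript was divided into overlapping words of 50 bases, and the share of words also present in transcripts of other genes was counted. That share was 100% for COX2, 99.9% for COX3, 99.5% for ATP6, 98.8% for ND4L and 98% for ND3. It was 62.2% for ND4, 51.1% for COX1, 8.19% for ND2 and 7.61% for ND5. ND1, ND6 and CYTB shared 0 words. ATP8 went against this order: it shared 0 words with any annotated transcript and had 0 counts. It lies between COX2 and ATP6 and overlaps the latter, and the chromosome 1 sequence between those copies holds no annotated transcript and was not read here. Whether reads that match several places were dropped is not given in the sources used here. The counts of ND3, ND4, COX1 and the genes near 0 are therefore uncertain as levels, and the part of the copies in them was not tested.

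**Figure D1:**
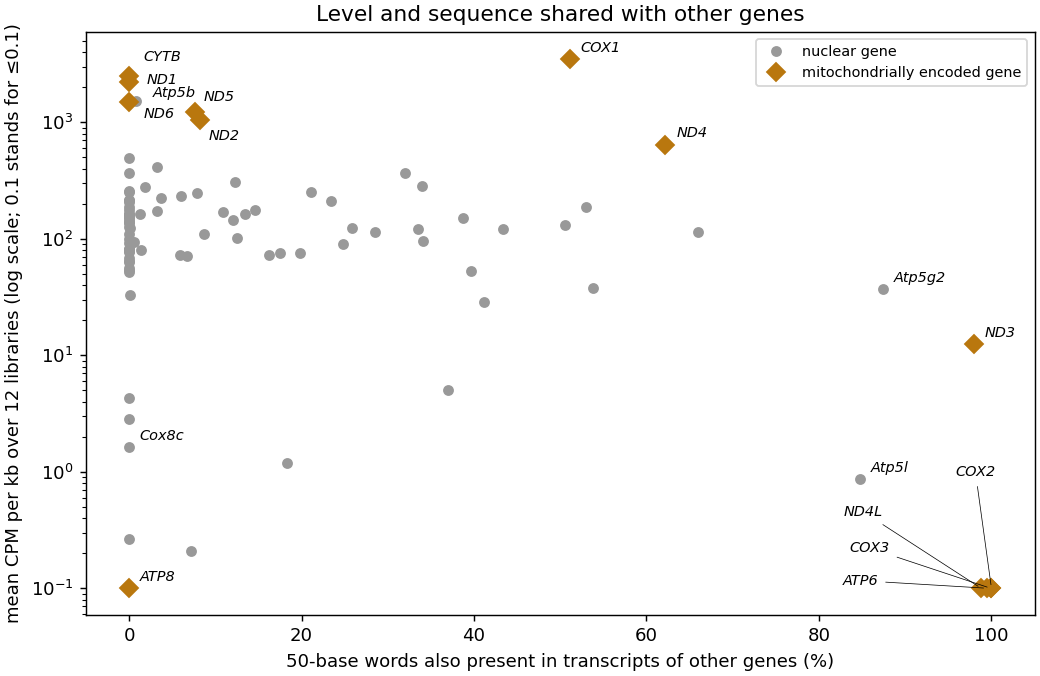
Each point is 1 member or 1 mitochondrially encoded gene with 0 counts. The x axis gives the share of its 50-base words found in transcripts of other genes (%). The y axis gives its mean level over the 12 libraries (CPM per kilobase of transcript, log scale, with 0.1 standing for 0.1 or less). COX2, COX3, ATP6 and ND4L sit at the bottom right with shares of 98.8 to 100%, and ND3 above them at 12.5 CPM per kb. ATP8 lies at the bottom left, with a share of 0% and 0 counts. COX1 and ND4 reach 3520 and 643 CPM per kb at intermediate shares.

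Nuclear members share sequence with other genes too. Atp5l, subunit g of the ATP synthase, shared 84.8% of its words with 14 other genes and had 98 counts over all libraries. Atp5g2, 1 of 3 genes for the same c-ring subunit, shared 87.4% and had 6664 counts. Its paralog Atp5g1 shared 66% and had 17977, and Atp5g3, with 0 shared words, had 92254. The order of these paralogs by level is therefore uncertain. Atp5k, Cox6b2, Cox7a1 and Uqcrfs1, on which results below turn, shared 1.24%, 0%, 0% and 0% of their words. Atp5j, also described below, shared 12%, Ndufb8 13.5%, Cox6c 21.1%, Ndufb9 23.4% and Cox5b 25.9%, and their counts are less certain for it.

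By mean level per kilobase of transcript, mitochondrially encoded genes led the members: COX1 at 3520 CPM per kb, CYTB at 2520 and ND1 at 2220. Atp5b, the catalytic beta subunit of the ATP synthase, followed at 1530, beside ND6 at 1510, ND5 at 1220 and ND2 at 1040. ND6 lies on the opposite strand of mitochondrial DNA from the other genes, and the strand setting of the counting is not given, so its reads cannot be told apart from antisense ones. The highest nuclear member of complex IV was Cox5a (365 CPM per kb), of complex I Ndufa7 (278), of complex III the hinge protein gene Uqcrh (247) and of complex II Sdha (177). Neighbours in this order, such as CYTB and ND1 or Atp5b and ND6, differed by less than the spread of the mitochondrial genes over the libraries.

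The summed level of the mitochondrially encoded genes varied more between libraries than between genotypes. It was 12044, 14875 and 17725 CPM in WT, 12378, 16830 and 12883 in KO, 9532, 13264 and 18266 in HxD and 27054, 13377 and 16705 in V. All 4 genotypes overlapped, with V 1 the highest library and HxD 1 the lowest. As a share of all counts this was 0.941% (HxD 1) to 2.72% (V 1). The nuclear members varied less, from 11300 to 15078 CPM in sum, so the ratio of mitochondrial to nuclear levels ran from 0.698 in HxD 1 to 1.79 in V 1. COX2, COX3, ATP6, ATP8 and ND4L added almost nothing to the mitochondrial sum, and the counts of ND3, ND4 and COX1 are uncertain, as said. These sums, shares and ratios are therefore not full levels of mitochondrial mRNA.

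V 1 was also the highest library for single genes. COX1 had 4230, 5240 and 5950 CPM in WT, 4510, 5830 and 5060 in KO, 3560, 4930 and 6610 in HxD and 8910, 4940 and 5410 in V. CYTB had 2210, 2860 and 3340 CPM in WT, 2210, 3130 and 2130 in KO, 1580, 2390 and 3550 in HxD and 5400, 2360 and 3380 in V. ND6, copied from the other strand, had 711, 611 and 937 CPM in WT, 630, 816 and 689 in KO, 734, 658 and 903 in HxD and 1180, 733 and 823 in V. In each of these genes V 1 was the highest library and the other V libraries lay within the range of WT, apart from CYTB in V 3 at 3380 CPM.

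EdgeR and DESeq2 each called 0 of the 8 tested mitochondrial genes in any comparison, and in each comparison with WT 0 had an unadjusted edgeR p under 0.05. For KO the log2 fold changes ran from -0.35 (ND4) to 0.00 (COX1) with a median of -0.10, and in HxD from -0.27 to 0.02 with a median of -0.17. The medians changed sign without 1 library, to 0.05 in KO without WT 3 and 0.06 in HxD without HxD 1. In V they were 0.41 for ND1, 0.40 for ND2, 0.60 for ND3, 0.27 for ND4, 0.35 for ND5, 0.27 for ND6, 0.41 for CYTB and 0.32 for COX1. Without V 1 the median over these genes was 0.02 and ND3 and ND4 turned negative. The 95% interval for COX1 in V, -0.07 to 0.71, shows what 3 libraries a group could resolve.

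**Figure D2:**
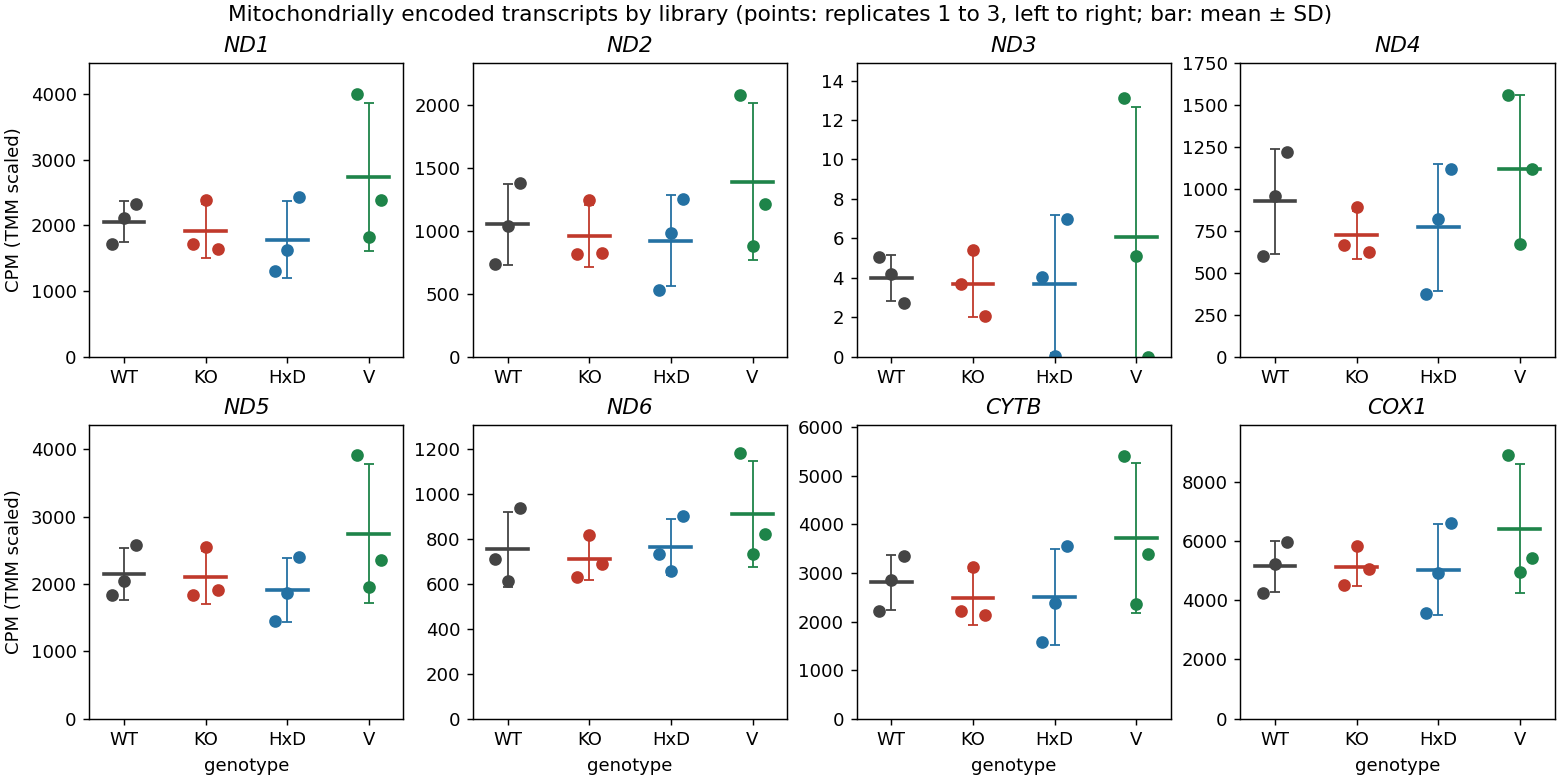
Points are libraries (replicates 1 to 3 from left to right), with CPM on the y axis from 0 and genotype on the x axis, and bars give mean ± SD of the 3 libraries. V 1 stands above the other V libraries in each of the 8 genes, and ND3 stays at or below 13.1 CPM (its SD bar in V is cut at 0).

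The nuclear members had mostly higher values in the mutants than in WT, and none was called by edgeR with its default filter. EdgeR called 0 of 89 members in each of the 6 comparisons between genotypes, where it called 0.218% of all tested genes in KO, 0.034% in HxD and 0% in V against WT, and 0.0068%, 0.0204% and 0% in KO against HxD, KO against V and V against HxD. DESeq2 called 1 member in KO against WT, 2 in HxD against WT, 2 in V against WT and 1 in KO against HxD, each named below, where it called 1.7%, 1.39%, 0.597% and 0.643% of all genes. In KO against V and V against HxD it called 0 members, against 0.425% and 0.654% of all genes. Counts of 1 or 2 among 89 are too few to set apart from these shares. Positive log2 fold changes were seen for 67 of the 89 members in KO, 68 in HxD and 81 in V, beside 50.3%, 47.6% and 51% of all 14702 genes tested. The median over the 81 nuclear members was 0.24 in KO, 0.19 in HxD and 0.27 in V, beside medians of 0.00, -0.02 and 0.01 over all genes.

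Counts at looser limits ran the same way. At an unadjusted edgeR p under 0.05, 12 members were higher and 2 lower in KO, against 3.75% and 4.54% of all genes. The counts were 11 higher and 1 lower in HxD, against 3.42% and 4.82%, and 13 higher and 0 lower in V, against 2.85% and 3.2%. All 3 libraries of the mutant lay above all 3 of WT for 22 members in KO, 17 in HxD and 20 in V, against 8.13%, 5.26% and 5.75% of all genes. The reverse held for 1, 1 and 0 members, against 8.15%, 7.22% and 6.06%. The summed level of the germ cell markers also separated WT from every mutant, in the opposite direction, though by gene these markers went both ways. Their part in these counts was not tested. Transcript length also moved with these values. Other genes of up to 1000 bases had larger shares on the higher side than all genes, as given below.

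By complex, the medians in KO, HxD and V were 0.24, 0.23 and 0.22 for the 37 nuclear genes of complex I, 0.07, 0.01 and 0.08 for the 4 of complex II, 0.32, 0.19 and 0.36 for the 10 of complex III, 0.34, 0.32 and 0.46 for the 13 of complex IV, and 0.14, 0.16 and 0.25 for the 17 of complex V. Complex IV had the highest median and complex II the lowest in all 3 mutants. No difference between complexes was tested. The complexes also differed in transcript length, with 1142 (Sdhb) to 3171 (Sdhc) bases in complex II. The nuclear genes of complex IV had 393 (Cox7a1) to 1076 (Cox7a2l) bases. Length moved with the values, as described below, and its part in this order was not tested.

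Summed levels showed the complexes library by library. For complex III WT had 1100, 1143 and 1080 CPM and the 9 mutant libraries 1200 to 1585, with no overlap. For complex IV WT had 1163, 1187 and 1123 CPM, below all KO (1387 to 1559) and V (1379 to 1905) libraries, while HxD had 1530, 1157 and 1632, with HxD 2 inside the WT range. For complex V WT had 5394, 5682 and 5432 CPM, below all KO (5932 to 6103) and HxD (6157 to 6314) libraries, and V 3 at 5541 lay inside the WT range. For complex I WT had 2950 to 3089 CPM, KO 1 and HxD 2 lay below that range (2821 and 2856), V 3 within it (2982) and the other mutant libraries above it (3259 to 4013). For complex II the genotypes overlapped, at 716 to 921 CPM.

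**Figure D3:**
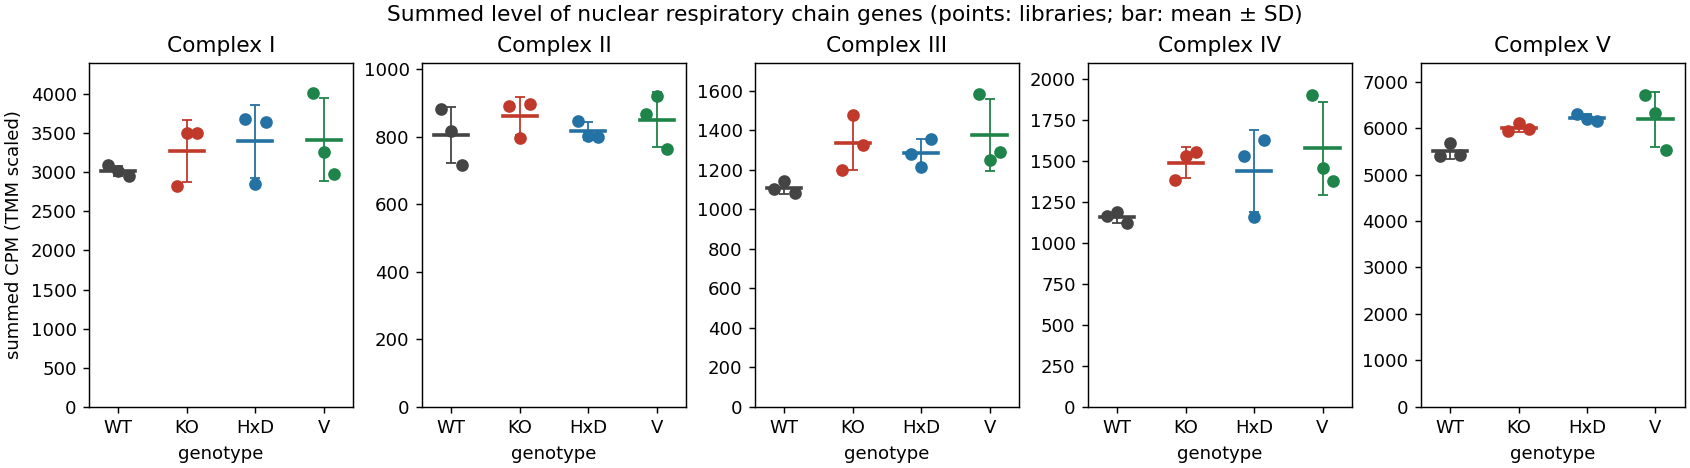
Points are libraries, with summed CPM of the nuclear genes of each complex on the y axis from 0 and genotype on the x axis, and bars give mean ± SD of 3 libraries. WT lies below all mutant libraries for complex III (1108 ± 32.2 CPM in WT), while the groups overlap for complex II (804.3 ± 82.7 CPM in WT).

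Complex I takes electrons from NADH through a flavin and a chain of iron-sulphur clusters in its peripheral arm, and its membrane arm holds many small accessory subunits. Ndufb8, a membrane arm subunit, had 93.4, 95.8 and 90.6 CPM in WT and 109, 150 and 145 in KO (log2 fold change 0.53, SE 0.20, edgeR adjusted p = 0.436), with every KO library above WT. Ndufb9, another membrane arm subunit, had 134, 105 and 114 CPM in WT and 167, 136 and 209 in HxD (0.53, SE 0.20, edgeR adjusted p = 0.483). Both are small accessory subunits with no redox centre.

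Ndufa6, an accessory subunit of the peripheral arm, had 72.6, 106 and 82.6 CPM in WT and 118, 119 and 149 in HxD (0.56, SE 0.21, edgeR adjusted p = 0.5). Ndufb10 had 41.7, 54.1 and 24.3 CPM in WT and 90.5, 54.6 and 74.7 in V (0.87, SE 0.31, edgeR adjusted p = 0.705). Its V libraries lay above WT, V 2 only just. Ndufs4, an accessory subunit needed to assemble the NADH-binding part, had 78.6, 86.5 and 70.5 CPM in WT and 127, 98.6 and 107 in V (0.50, SE 0.22, edgeR adjusted p = 0.789).

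The 2 members with lower values at an unadjusted p under 0.05 in KO were both catalytic subunits of complex I. Ndufs1, the largest iron-sulphur subunit, had 239, 220 and 212 CPM in WT and 154, 180 and 174 in KO, with no overlap (log2 fold change -0.40, SE 0.18, edgeR adjusted p = 0.539). Ndufv1, which binds NADH and the flavin, had 366, 296 and 260 CPM in WT and 176, 250 and 265 in KO, overlapping (-0.42, SE 0.18, edgeR adjusted p = 0.542). It was named after its values were seen. In HxD and V both genes also had negative values, -0.17 and -0.25 for Ndufs1 and -0.16 and -0.16 for Ndufv1, with overlapping libraries. Over the 37 nuclear genes of complex I, 30 had positive values in KO, 31 in HxD and 33 in V, beside 50.3%, 47.6% and 51% of all genes. Ndufs1 and Ndufv1 have transcripts of 2661 and 1661 bases, and Ndufb8 and Ndufb9 of 680 and 704. Ndufs4, at 1698 bases, had a positive value in KO (0.25). Length moved with such values, as described below, and its part here was not tested.

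Complex II, succinate dehydrogenase, also serves the tricarboxylic acid cycle. The flavoprotein gene Sdha had 495, 549 and 444 CPM in WT, 575, 486 and 543 in KO, 491, 569 and 457 in HxD and 517, 580 and 470 in V. Its log2 fold changes of 0.11, 0.03 and 0.07 had 95% intervals of -0.20 to 0.42, -0.28 to 0.34 and -0.24 to 0.39. The iron-sulphur subunit gene Sdhb gave 0.02, -0.08 and 0.05, and the membrane anchor genes Sdhc and Sdhd gave -0.01, -0.02 and 0.10, and 0.24, 0.14 and 0.14. All 4 genes overlapped WT in every mutant, and signs of values this small turned with single libraries. Sdhb in HxD was 0.05 without WT 1, Sdhd in V was -0.01 without WT 3 and -0.03 without V 2, and Sdhd in HxD was -0.01 without WT 3.

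Complex III passes electrons from ubiquinol to cytochrome c through cytochrome b, cytochrome c1 and the Rieske iron-sulphur protein. The Rieske gene Uqcrfs1 had 126, 129 and 100 CPM in WT, 140, 172 and 142 in KO, 143, 125 and 142 in HxD and 175, 174 and 216 in V. KO and V libraries lay above WT and HxD 2 fell inside its range. In V the log2 fold change was 0.67 (SE 0.18, edgeR adjusted p = 0.494), and DESeq2 called the gene (adjusted p = 0.00817). Uqcrq, a small subunit bound to cytochrome b, had 75.9, 75.9 and 57.6 CPM in WT, 104, 124 and 93.3 in KO, 107, 83.5 and 121 in HxD and 149, 97.7 and 62.8 in V. Its log2 fold changes were 0.62, 0.57 and 0.57 (SE 0.25 each, edgeR adjusted p = 0.482, 0.58 and 0.789), with V 3 inside the WT range. Without V 1 the V value was 0.21. Uqcrc1, a core subunit, had 234, 247 and 168 CPM in WT and 216, 304 and 320 in HxD (0.37, SE 0.18, edgeR adjusted p = 0.6), overlapping, and 0.22 without WT 3. All 10 nuclear members of complex III had positive values in KO and in HxD, and 9 did in V. The shares of all genes were 50.3%, 47.6% and 51% in KO, HxD and V. Among other genes of up to 1000 bases and at least 20 CPM they were 73%, 76.1% and 82.7%. The 10 include the pseudogene Uqcrh-ps1, with 85 counts over all libraries and a KO value of 0.53 (SE 3.1).

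Complex IV, cytochrome c oxidase, surrounds its mitochondrially encoded core with small nuclear subunits, several of which exist as tissue-specific isoforms. Among the generally expressed ones, Cox6c had 92, 100 and 101 CPM in WT, 120, 134 and 177 in KO, 131, 103 and 172 in HxD and 155, 109 and 129 in V, so that WT lay below every mutant library. Its values were 0.55 in KO (SE 0.21, edgeR adjusted p = 0.418), 0.47 in HxD (SE 0.21, 0.582) and 0.42 in V (SE 0.21, 0.821). Without HxD 3 the HxD value was 0.27. Cox5b had 78.2, 94.8 and 78.1 CPM in WT and 153, 105 and 110 in V (0.55, SE 0.21, edgeR adjusted p = 0.718). Cox7b had 74.6, 79.1 and 64.1 CPM in WT and 134, 81.8 and 117 in V (0.61, SE 0.22, edgeR adjusted p = 0.705). In both, all V libraries lay above WT.

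The isoform pairs differed in level. Cox6b1, the general form of subunit VIb, averaged 109 ± 27.6 CPM in WT (SD), and Cox6b2, the testis form, 23.7 ± 6.64. Cox6b2 had 16.3, 25.7 and 29.2 CPM in WT, 17.5, 14.9 and 24.3 in KO, 37.6, 59.7 and 56.2 in HxD and 52.1, 32.5 and 33.8 in V. HxD and V libraries lay above all WT and KO libraries, which overlapped each other. HxD against WT gave 1.11 (SE 0.37, edgeR adjusted p = 0.412) and V against WT 0.73 (SE 0.36, edgeR adjusted p = 0.821). The direct comparison of KO with HxD gave -1.44 (SE 0.37, 95% interval -2.19 to -0.68), with edgeR adjusted p = 0.641 and DESeq2 adjusted p = 0.00414. KO against V gave -1.06 (SE 0.37, edgeR adjusted p = 0.978).

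Cox7a1, the heart and muscle form of subunit VIIa, had 12.4, 10.6 and 3.59 CPM in WT, 33.2, 23.2 and 36.3 in KO, 43.5, 1.58 and 20.1 in HxD and 20.9, 21.3 and 29.7 in V. KO and V lay above WT, while HxD spanned it on both sides. KO gave 1.80 (SE 0.66, edgeR adjusted p = 0.381), V 1.43 (SE 0.65, 0.807) and HxD 1.29 (SE 0.65, 0.601). The general form Cox7a2 was at 144 ± 9.89 CPM in WT and 179 ± 17.1 in KO, and Cox7a2l, a factor of respiratory supercomplexes, at 72.5 ± 12.4 and 84.9 ± 22.1.

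Other isoforms of restricted tissues were near or at 0. Cox6a2 and Cox8b, forms of heart and skeletal muscle, had 0 counts, and Cox7b2, a testis form, reached at most 1.03 CPM, while their general counterparts Cox6a1, Cox8a and Cox7b averaged 145, 123 and 72.6 CPM in WT. Cox8c, a testis form, had 8, 15 and 53 counts in WT and 0 in every HxD library. It was the member counted as lower in HxD above. The floor was set at 3 counts over the HxD group (0.0441 CPM, counting error only). Against it, HxD was at least 26.6-fold lower than the 1.17 CPM of WT. Without WT 3, which held 53 of these WT counts, the WT level was 0.548 CPM and the bound 12.4-fold. With the spread between libraries, the edgeR 95% interval of the log2 fold change was -15.1 to -0.16 (edgeR unadjusted p = 0.0455, adjusted p = 0.6). KO (2.08, 0.329 and 0.955 CPM) and V (0, 0.633 and 1.54) overlapped WT. Ndufa4 averaged 110 CPM in WT and 136 to 141 in the mutants, and its relative Ndufa4l2, a hypoxia-inducible gene, had 0, 1.27 and 0 CPM in WT and 8.41, 1.67 and 13.1 in V (edgeR adjusted p = 0.846).

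Complex V, the ATP synthase, held the member with the smallest p in KO and in HxD. Atp5k, subunit e, which joins ATP synthases into dimers in the inner membrane, had 32.4, 40.7 and 36 CPM in WT, 75.4, 71.2 and 71.3 in KO, 75.6, 60.9 and 100 in HxD and 67.7, 49 and 50.6 in V. Every WT library lay below every mutant library. The log2 fold change was 1.0 in KO (SE 0.26, edgeR adjusted p = 0.121), 1.12 in HxD (SE 0.26, edgeR adjusted p = 0.145) and 0.62 in V (SE 0.26, edgeR adjusted p = 0.774). Leaving out single libraries gave 0.92 to 1.09 in KO and 0.92 to 1.27 in HxD. DESeq2 called it in KO (adjusted p = 0.00364) and HxD (adjusted p = 0.000289), and edgeR did so in HxD when no filter on low counts was used (adjusted p = 0.0253), a setting that called 0.337% of all genes there.

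Atp5j, coupling factor 6 of the stalk, had 83.9, 82.5 and 66.1 CPM in WT, 94.4, 112 and 98.2 in KO, 90.6, 136 and 143 in HxD and 151, 116 and 128 in V, again with WT below every mutant library. Its values were 0.39 in KO (SE 0.21, edgeR adjusted p = 0.636), 0.67 in HxD (SE 0.21, 0.392) and 0.76 in V (SE 0.21, 0.494). DESeq2 called it in HxD (adjusted p = 0.0478) and V (0.0239). Atp5j2, subunit f, had 182, 184 and 116 CPM in WT and 342, 226 and 177 in V, overlapping (0.63, SE 0.21, edgeR adjusted p = 0.599), and 0.34 without V 1. Subunits e and f sit in the membrane part of the enzyme, and factor 6 in the stalk that holds the catalytic head still.

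In the catalytic head, Atp5b had 2760, 2900 and 2670 CPM in WT, 2890, 2900 and 2880 in KO, 3090, 3150 and 3020 in HxD and 3050, 3150 and 2620 in V. Its log2 fold changes were 0.06, 0.15 and 0.08 with 95% intervals of -0.20 to 0.32, -0.11 to 0.42 and -0.18 to 0.35, which leave out a difference of the size seen for Atp5k. The c-ring gene Atp5g3 had 340, 302 and 265 CPM in WT and 389, 444 and 389 in KO (0.43, SE 0.16, edgeR adjusted p = 0.412), with no overlap. Its paralogs Atp5g1 and Atp5g2, whose counts are uncertain as said, gave 0.00 and -0.05 in KO, -0.44 and 0.04 in HxD and 0.09 and 0.84 in V. The V value of Atp5g2 had an SE of 0.45 (edgeR adjusted p = 0.833).

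**Figure D4:**
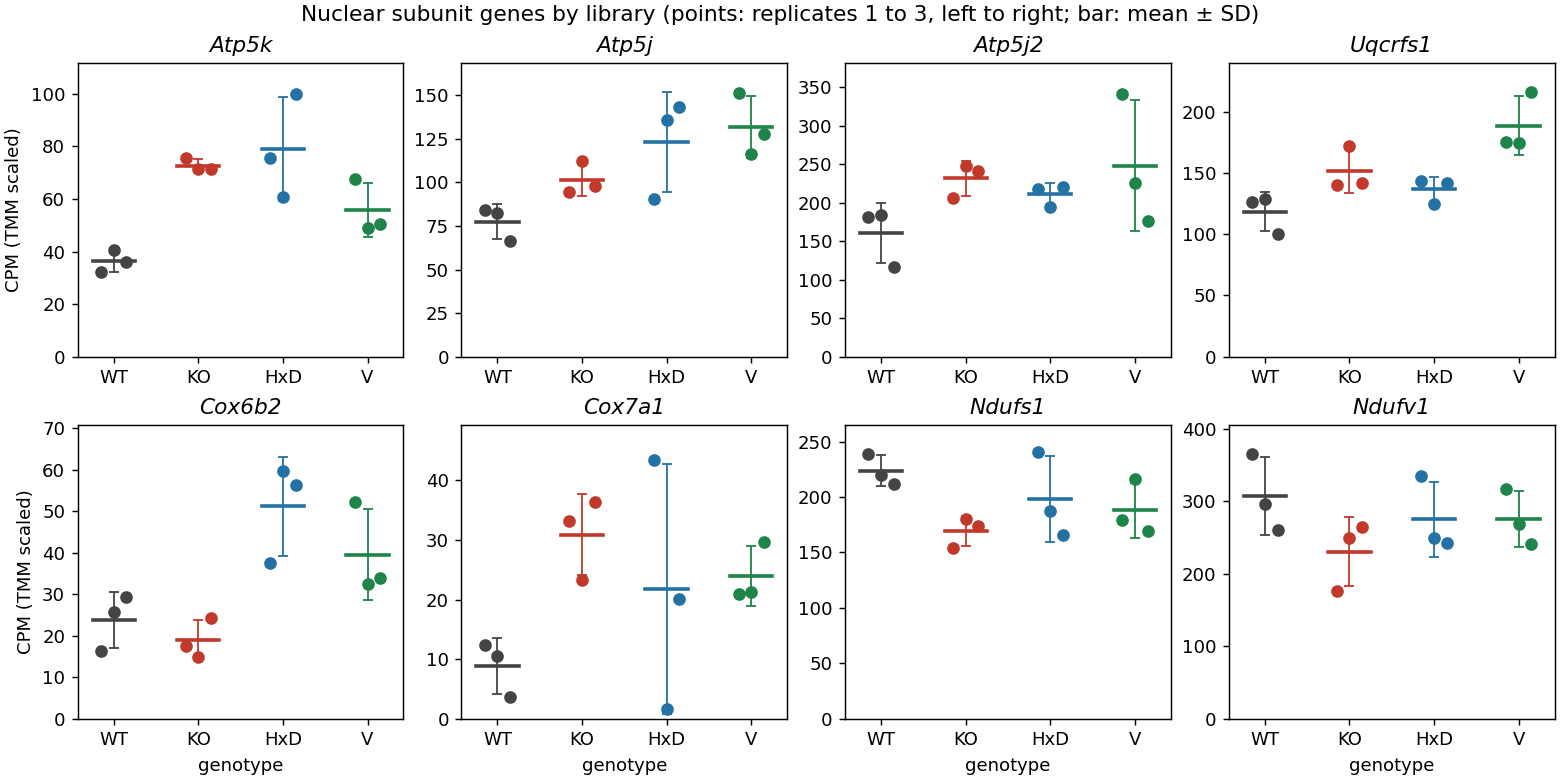
Points are libraries (replicates 1 to 3 from left to right), with CPM on the y axis from 0 and genotype on the x axis, and bars give mean ± SD of 3 libraries. WT lies below all mutant libraries for Atp5k (36.4 ± 4.12 CPM) and Atp5j (77.5 ± 9.89), HxD and V stand above WT and KO for Cox6b2, and Ndufs1 is lower in KO (169 ± 13.6) than in WT (224 ± 14).

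TET1 acts mainly on methylated CpG sites, so the promoters of the members were read from RefSeq (GRCm38.p6, 250 bases before to 50 after the start), which held 70 promoters of 65 of the 92 members. These were rich in CpG, with a median of 19 CpG sites per promoter and an observed-to-expected ratio of 0.79, against 7 sites and 0.38 over all 32851 promoters. Exact matches were searched on both strands. The palindromic core motif of NRF1 was found in 7.14% of the members' promoters and 0.971% of all, CCGGAAG of ETS factors in 22.9% and 8.86%, AAGATGGC of YY1 in 12.9% and 2.75%, and the GC box GGGCGG in 38.6% and 35.7%. None of these motifs contains another. The NRF1 matches were 5 of 70 promoters. The NRF1, ETS and GC box words contain a CpG, and the promoters set beside the members were not matched for CpG sites. A match describes the letters only, and no methylation or binding was measured here.

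The 150 bases before the start of Atp5k, Cox6b2 and Cox7a1 are printed, with CpG sites in capitals, to set the ATP synthase gene with the smallest p beside the 2 tissue-specific isoform genes described above.
Atp5k (chr5:108434400-108434549, minus strand): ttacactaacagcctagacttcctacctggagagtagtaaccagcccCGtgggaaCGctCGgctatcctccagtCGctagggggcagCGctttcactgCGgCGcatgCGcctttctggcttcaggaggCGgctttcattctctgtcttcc
Cox6b2 (chr7:4753095-4753244, minus strand): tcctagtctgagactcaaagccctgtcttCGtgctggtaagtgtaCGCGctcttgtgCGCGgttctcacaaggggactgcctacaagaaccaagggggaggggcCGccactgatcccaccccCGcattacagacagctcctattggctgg
Cox7a1 (chr7:30184021-30184170, plus strand): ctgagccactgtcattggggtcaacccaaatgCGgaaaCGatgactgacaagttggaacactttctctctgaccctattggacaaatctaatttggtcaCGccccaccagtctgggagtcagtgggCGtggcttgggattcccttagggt

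These stretches hold 9, 7 and 4 CpG sites. Over the 300 bases, Atp5k had 19 sites (ratio 0.74), with 1 NRF1 and 1 ETS match. The testis form Cox6b2 had 10 sites (0.43) and the muscle form Cox7a1 had 7 (0.33), with 0 matches to NRF1, ETS or YY1, closer to the median of all promoters.

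Transcript length moved with the differences from WT. The members are short, with a median of 722 bases against 3006 for the 7126 other genes averaging at least 20 CPM. Among those other genes, the median log2 fold change fell from 0.22 in KO, 0.20 in HxD and 0.29 in V for transcripts up to 700 bases to -0.14, -0.08 and -0.16 for those over 5000 bases. The 38 nuclear members up to 700 bases had medians of 0.28, 0.27 and 0.34. The 17 of 700 to 1000 bases had higher medians, 0.37, 0.29 and 0.45. Longer members had lower ones, 0.24, 0.14 and 0.20 for the 11 of 1000 to 1500 bases and 0.10, 0.08 and 0.17 for the 9 of 1500 to 2000 bases. Groups of under 20 genes such as these are thinly filled.

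With each of 80 nuclear members set against the median of other genes of its length, a step added after seeing the data, the median difference was 0.0869 in KO, 0.0703 in HxD and 0.0712 in V. By that measure 50, 51 and 53 of the 80 lay above genes of their length. Among 423 other genes of up to 1000 bases, 15.4%, 9.22% and 12.5% had all mutant libraries above WT in KO, HxD and V, and 73%, 76.1% and 82.7% had positive values. Among the 55 nuclear members of that length the shares were 25.5%, 18.2% and 27.3%, and 83.6%, 89.1% and 92.7%. At an unadjusted edgeR p under 0.05, 10.9%, 9.69% and 13.7% of those other genes were higher in KO, HxD and V. The shares of the 55 members were 18.2%, 16.4% and 16.4%. These centred medians were below the uncentred medians of 0.24, 0.18 and 0.27 over the same 80 members. The part of RNA quality and library preparation in the trend was not tested.

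**Figure D5:**
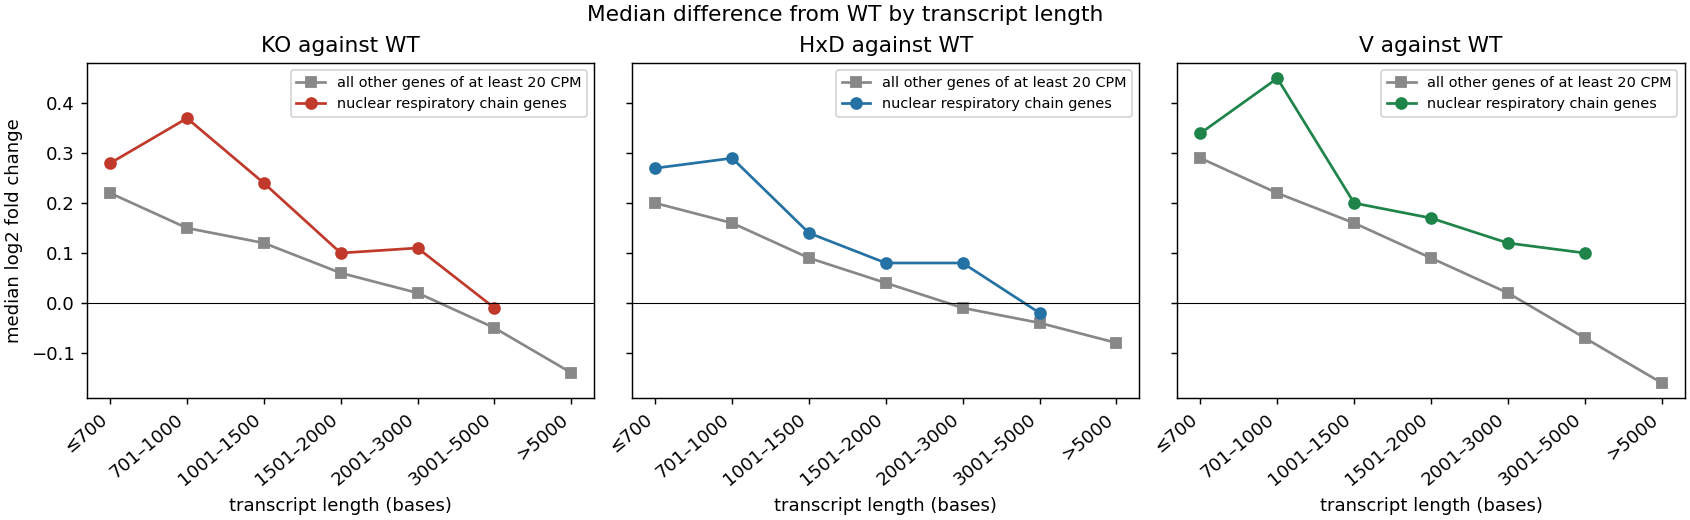
Medians of log2 fold change against WT (y axis) are drawn by transcript length in bases (x axis) for nuclear members and for other genes averaging at least 20 CPM, 1 panel per mutant. Other genes run from 0.22, 0.20 and 0.29 in the shortest group to -0.14, -0.08 and -0.16 in the longest, and the members of up to 700 bases lie at 0.28, 0.27 and 0.34.

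Between mutants few members separated. KO against HxD had a median of 0.00 over the nuclear members, with 1 member higher and 2 lower at an unadjusted edgeR p under 0.05, against 2.79% and 1.88% of all genes. KO against V had a nuclear median of -0.06 and 0 higher and 6 lower, against 1.81% and 2.29%, and V against HxD 0.06, with 6 higher and 0 lower, against 3.43% and 1.63%. Libraries did not overlap for 3 members higher and 3 lower in KO against HxD (5.64% and 3.69% of all genes), 1 and 6 in KO against V (5.19% and 5.15%) and 2 and 0 in V against HxD (4.79% and 3.2%). Positive values were seen for 46, 31 and 61 of the 89, beside 51.5%, 49.2% and 52.3% of all genes. In the comparisons with V, 4 of the 6 at an unadjusted p under 0.05 were mitochondrially encoded, whose medians were -0.53 in KO against V and 0.55 in V against HxD. Without V 1 these medians were -0.13 and 0.18, and 0 mitochondrial genes had an unadjusted p under 0.05. The groups overlapped for all 8 mitochondrial genes.

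Other genes of the pathway, on lists chosen with earlier results of these data known, gave 0 edgeR calls in comparisons with WT. Of 43 tested assembly factors, 1 was higher and 1 lower in KO at an unadjusted edgeR p under 0.05, against 3.75% and 4.54% of all genes. The counts were 1 and 2 in HxD, against 3.42% and 4.82%, and 1 and 1 in V, against 2.85% and 3.2%. The list medians were 0.03 in KO, -0.02 in HxD and 0.11 in V. Cox17, the copper chaperone of complex IV, was the higher one in KO (1.15, SE 0.33, edgeR adjusted p = 0.172), and the lower one Coa5 (-0.53, SE 0.24, 0.56). The 10 tested subunits and carriers outside the symbol pattern had medians of 0.12, 0.14 and 0.23, with Atpif1, the inhibitor of the ATP synthase, at 0.88 in V (edgeR adjusted p = 0.568).

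Of 77 mitochondrial ribosome genes, which make the proteins of the mitochondrial genome, 7 were higher and 0 lower in KO, 7 and 2 in HxD and 5 and 0 in V at that limit, with medians of 0.15, 0.17 and 0.14. The shares of all genes were 3.75% and 4.54%, 3.42% and 4.82%, and 2.85% and 3.2%. Mrpl20 had 1.07 in V and Mrps6 -1.02 in HxD (edgeR adjusted p = 0.48 and 0.412). The 23 genes of mitochondrial DNA replication, transcription and RNA stability had medians of 0.22, 0.12 and 0.11. The rRNA methyltransferase gene Tfb1m had 1.47 in V (edgeR adjusted p = 0.494) and the DNA polymerase gene Polg 0.51 in KO (edgeR adjusted p = 0.504). The 15 tested regulators of mitochondrial biogenesis had medians of 0.05, 0.04 and -0.05, with Esrrb and Yy1 at 0.48 and 0.51 in HxD (edgeR adjusted p = 0.55 and 0.58). The 18 genes of the tricarboxylic acid cycle had medians of 0.10, 0.01 and 0.09. Of the succinyl-CoA ligase genes, Suclg1 had 0.73 in HxD (edgeR adjusted p = 0.318) and Suclg2 0.59 in KO (edgeR adjusted p = 0.591).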

How the data were processed

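Per the submitters' processing notes, processing used STAR 2.7.10b, featureCounts 2.0.3, SAMtools 1.9, Trim Galore 0.6.7 and FastQC, with builds GRCm39 and mm10 listed without a role. The authors deposited raw counts per gene symbol, and the sources used here do not state the annotation, the strand setting or how reads with several matches were treated. Of the table's columns 12 name a sample, 1 other was not used, and a 4th WT sample of the labels was not analysed here.

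Counts were fitted over 12 libraries with edgeR 4.0.16 (R 4.3.3), after its default filter (14702 genes) and TMM scaling, using the quasi-likelihood F-test with genotype as the only term, two-sided, and Benjamini-Hochberg adjustment over all genes at a threshold of 0.05. The common biological coefficient of variation was 0.932. DESeq2 1.42.0, no filter, a stricter filter, other scalings, a replicate block and left-out libraries were alternatives. The procedure was tested on simulated data for KO against WT. It recovered 33% of 2-fold and 79% of 4-fold changes, with 2 false calls. The changed genes were drawn above a floor on mean CPM, so these rates do not cover low members such as Cox8c and Ndufa4l2. Smaller changes were not simulated, so the absence of calls among members is a weak limit. Same-numbered libraries did not deviate together over all tested genes (18 pairs, r from -0.06 to 0.09), so replicate numbers are not shown to pair them.

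Transcript lengths and 50-base words came from GENCODE (GRCm38), for 91 of the 92 members. Members, lists and tests were chosen with earlier results of these data known. Named genes are Tet1, all mitochondrially encoded members, the Sdh genes, isoform sets, called members, the 2 members per complex with the smallest p in each comparison with WT, the highest member of each complex per length and 2 members of each other list.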

Additional observations from a re-analysis of the deposited data

How the results depend on the processing

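EdgeR called 0 members in every comparison with RLE scaling, with scaling that left out the mitochondrially encoded genes, with a stricter filter, with the genotypes of a comparison alone, with WT 3 and V 3 set aside together (added after seeing the data) and without any single replicate. DESeq2 called 1 member in KO, 2 in HxD and 2 in V against WT and 1 in KO against HxD (1.7%, 1.39%, 0.597% and 0.643% of all genes), and edgeR called 1 in HxD against WT with no filter (0.337% of all genes). Atp5k was among those called in KO and HxD under DESeq2 and was the one called with no filter. With the replicate block, edgeR also called 0 members, and the nuclear medians were 0.25 in KO, 0.18 in HxD and 0.27 in V. Replicate numbers are not shown to pair the libraries. Centred on genes of the same length, the nuclear median in V was 0.07, and by construction this takes out the trend of other genes with length.

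Leaving out single replicates moved the nuclear medians over 0.17 to 0.29 in KO, 0.17 to 0.34 in HxD and 0.17 to 0.37 in V, with no change of sign. It moved the mitochondrial medians over -0.33 to 0.05, -0.48 to 0.06 and 0.02 to 0.59. Of single genes, the ranges that crossed 0 were -0.28 to 0.05 for Sdhb in HxD, -0.01 to 0.29 for Sdhd in HxD, -0.03 to 0.41 for Sdhd in V, -0.01 to 0.15 for Sdha in V, and -0.63 to 1.19 for ND3 and -0.04 to 0.53 for ND4 in V. Sdhd in HxD was also -0.01 with WT 3 and V 3 set aside. The cause of these changes was not tested. Values of ND3, Cox8c and Ndufa4l2 rest on few counts, and their wide intervals limit what can be said of them.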
